A study of Mus musculus with 12 samples.

Results

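The transcripts described here come from 10 genes of the actin cytoskeleton: the cytoplasmic actins Actb and Actg1, the beta-thymosins Tmsb4x and Tmsb10, profilin 1 (Pfn1), cofilin 1 (Cfl1), coronin 1A (Coro1a), and the subunits Arpc1b, Arpc2 and Arpc3 of the Arp2/3 complex. They were chosen by symbol, and all 10 were found among the 24781 symbols of the deposited table. RNA was measured in invariant natural killer T (iNKT) cells, which are T lymphocytes with a conserved receptor for lipids presented by CD1d. Every library held 100 cells sorted from mice at 6 weeks of age, and all cells shared the gate TCRbeta+, NK1.1+, CD1d tet+ and CXCR6+. Cells positive for the surface receptor CD244 (C2 subset) or negative for it (C1 subset) were taken from thymus and from lung, giving 4 groups of 3 libraries. The labels name no strain or treatment. Replicates are described as separate library preparations with no animal named, so the spread behind each p-value is that of these libraries and may be technical.

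Actin is kept in a cell as single subunits and as filaments, and the balance between them sets the shape, motility and contacts of a lymphocyte. Beta-thymosins bind single subunits and hold them in reserve, profilin hands subunits to growing filament ends, and the Arp2/3 complex starts new branches on the side of existing filaments. Cofilin severs old filaments, and coronins act on branches and on their turnover. In T cells this network is known for building the contact with the antigen-presenting cell and for crawling through tissue.

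The coding sequences of each paralog pair are shown because the ratio of the 2 members of each pair is compared between groups in the results. The lines below give the coding strand 5′ to 3′ on build GRCm38 (mm10), with capitals at the positions where the members of the pair differ. Tmsb4x lies on chromosome X (167207093 to 167209315, minus strand) and Tmsb10 on chromosome 6 (72957347 to 72958748, minus strand). Their coding regions are 135 bases long with no gap between them, differ at 40 positions and are 70.4% identical:
Tmsb4x: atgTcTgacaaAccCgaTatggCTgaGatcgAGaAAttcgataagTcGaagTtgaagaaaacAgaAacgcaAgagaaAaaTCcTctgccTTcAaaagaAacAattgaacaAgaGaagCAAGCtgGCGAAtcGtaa
Tmsb10: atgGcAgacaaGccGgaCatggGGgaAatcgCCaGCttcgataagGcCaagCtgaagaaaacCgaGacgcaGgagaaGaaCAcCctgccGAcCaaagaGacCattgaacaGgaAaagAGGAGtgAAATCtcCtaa

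Actb lies on chromosome 5 (142903115 to 142906754, minus strand) and Actg1 on chromosome 11 (120345690 to 120348542, minus strand). Their coding regions are 1128 bases long and 88.7% identical, so the pair is closer in sequence than the thymosins. The first 60 coding bases, which hold 9 of the differences, are:
Actb: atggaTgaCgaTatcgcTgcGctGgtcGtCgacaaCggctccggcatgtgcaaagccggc
Actg1: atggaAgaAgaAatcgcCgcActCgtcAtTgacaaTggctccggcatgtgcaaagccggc

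Upstream sequence is shown for Actg1 and Arpc3, the members with the largest fold changes that passed between lung and thymus. The windows were searched on both strands for the CArG box, the motif of the actin-linked factor SRF, and for CCGGAAG, a form of the ETS family motif. The 250 bases upstream of the RefSeq start (build GRCm38.p6) were available for 9 members. The member without them was Actb, so Actb was not searched for either motif. A CArG box was found in 1 of them, Actg1, and in 1.47% of 32851 promoters of the same length. CCGGAAG was found in Arpc3 and Tmsb4x, and in 6.91% of all promoters. These are matches of letters only. The bases shown end where the GENCODE gene begins, and capitals mark the match:
Actg1, chr11:120348543-120348645, minus strand: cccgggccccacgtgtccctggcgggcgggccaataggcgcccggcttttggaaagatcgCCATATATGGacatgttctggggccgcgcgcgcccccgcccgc
Arpc3, chr5:122391728-122391877, plus strand: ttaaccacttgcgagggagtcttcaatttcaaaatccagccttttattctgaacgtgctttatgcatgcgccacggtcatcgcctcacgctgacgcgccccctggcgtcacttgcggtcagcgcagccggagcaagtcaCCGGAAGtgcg

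Depth and purity differed between the groups. Recovered molecules per library numbered 56615 to 71789 in thymus and 42520 to 51436 in lung CD244+ cells. In lung CD244- cells they numbered 29696 to 32196. A list of 16 macrophage and monocyte markers, summed and expressed as molecules per 10000 molecules of the library, gave 64.8, 130 and 105 in the lung CD244+ libraries, in which 15 of the 16 were seen and only Siglecf was at 0. The same sum was at most 0.673 in every lung CD244- and thymus library, where Lyz2, C1qa, Mrc1, Cd14, Itgam and Adgre1 were at 0. A list of 8 MHC class II and B cell genes gave 48.9, 71.1 and 126 in lung CD244+ and at most 0.621 elsewhere. A list of 7 lung epithelium markers gave 1.02, 3.35 and 1.36 in lung CD244+ and 3.70, 1.66 and 1.63 in lung CD244- libraries. It gave at most 0.166 in thymus, so the lung CD244- libraries hold some foreign RNA too. The list called T cell receptor complex genes here named Cd3d, Cd3e, Cd3g, Cd247, Trac, Trbc1 and Trbc2. It also named Lck, Zap70, Lat, Cd2, Cd5, Cd6 and Thy1, which are T cell signalling or surface genes outside the receptor itself. Of the 14 listed, 11 were in the table. They were present in every library but summed to 24.2, 12.9 and 16.5 in lung CD244+ against 34.3 to 40.0 in lung CD244- and 26.5 to 35.6 in thymus. The 3 lung CD244+ libraries thus hold RNA that does not match a pure iNKT label, library 1 least and libraries 2 and 3 most. Called differences and ratios that rest on them are given with all 3 and with library 1 alone, a choice made after these values were seen. A limma fit with library 1 alone takes its spread from the other groups only. The part of this RNA in the results below was not tested. Depth, too, moves with the groups: 3 molecules, the limit that a count of 0 allows, equal 0.418 to 0.530 per 10000 in thymus, 0.583 to 0.706 in lung CD244+ and 0.932 to 1.01 in lung CD244- libraries. In 3 libraries (thymus CD244+ 1, thymus CD244- 2 and lung CD244+ 2) the smallest value is a fraction of the step taken as 1 molecule, so the step itself is less certain there and their molecule numbers, floors and counting intervals rest on it. Intervals and floors cover counting error only.

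Together the 10 genes supplied between 2.13% and 3.04% of all molecules. In molecules per 10000, their sum was 219, 227 and 235 in the thymus CD244+ libraries and 213, 232 and 235 in the thymus CD244- libraries. It was 273, 270 and 304 in lung CD244+ and 250, 256 and 280 in lung CD244-. On this common total all 6 lung libraries therefore lay above all 6 thymus libraries. The deposited thymus columns sum to 1.39 times the lung columns, so this order depends on the scaling. No test was run on this sum, since the genes were chosen together. Because the primer carried an oligo-dT stretch and a molecular barcode, levels of different genes are compared per molecule with no division by length. Priming away from the poly(A) tail was not examined, so levels of different genes may not compare exactly.

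Actb and Tmsb4x led in every group, with group means of 67.3 to 96.5 molecules per 10000, and neither was constantly above the other. Tmsb10 followed in 3 groups, and in lung CD244+ cells Actg1 (28.1 ± 11.4, SD, n = 3) and Tmsb10 (23.0 ± 4.95) had overlapping libraries. Arpc2, Cfl1 and Coro1a formed a middle tier with group means of 7.31 to 13.6, and their order changed from group to group. Arpc1b had means of 4.28 to 6.47. Pfn1 and Arpc3 were the least abundant, with means of 0.753 to 1.64 and 0.303 to 2.83. A difference for these 2 genes rests on few molecules per library, 0 to 13 for Pfn1 and 1 to 16 for Arpc3.

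**Figure D1:**
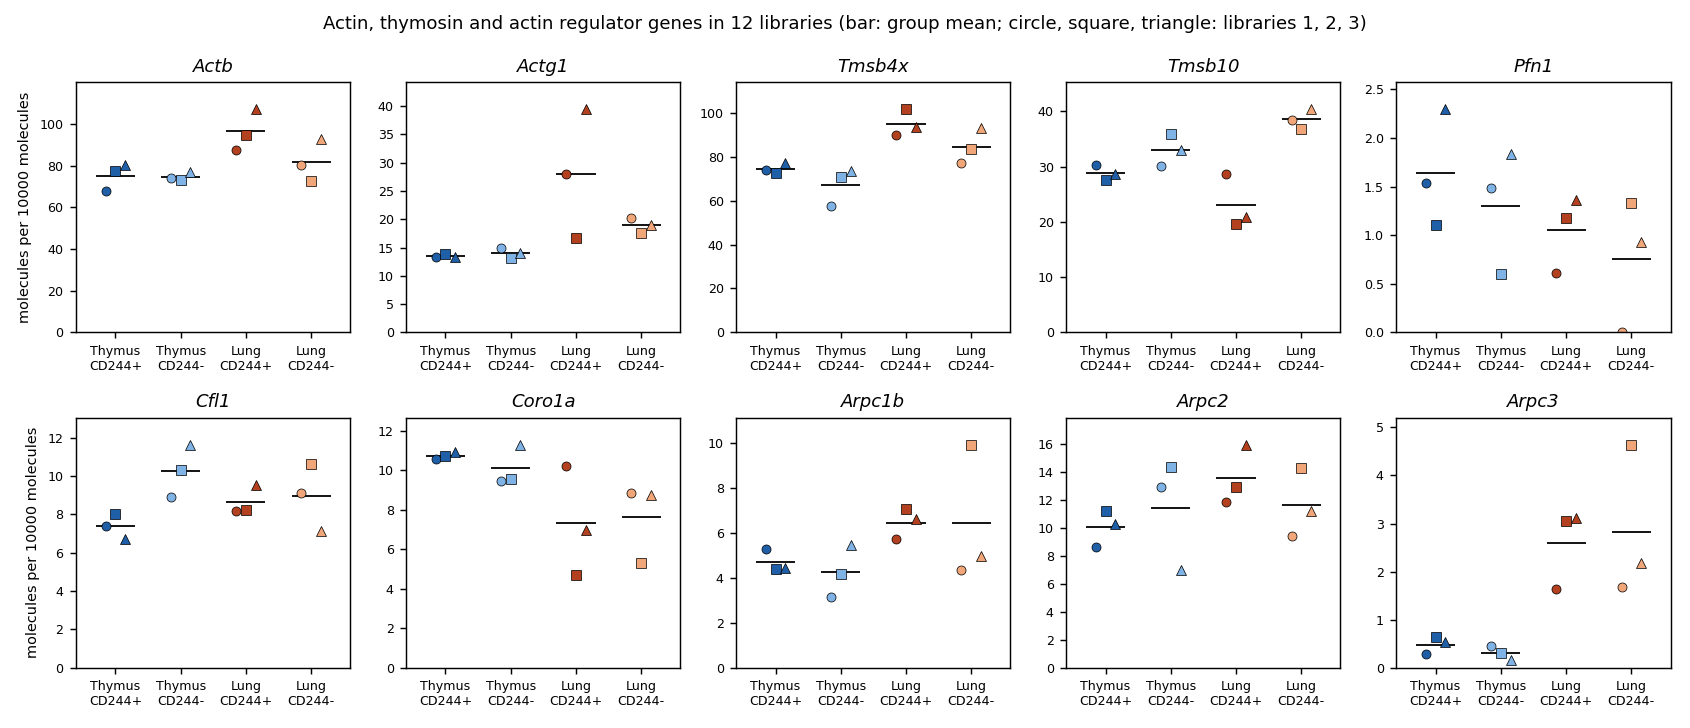
Molecules per 10000 molecules (vertical axis, linear, from 0) of the 10 genes in the 12 libraries, with groups on the horizontal axis; each point is a library and each bar a group mean. Arpc3 lies at 1.64 or above in all 6 lung libraries and at 0.631 or below in all 6 thymus libraries, Actg1 spreads from 16.7 to 39.5 in lung CD244+ cells, and Tmsb10 is lowest there.

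The first question was how the subsets differ within each tissue, CD244+ minus CD244-. In thymus none of the 10 genes changed between the subsets, where 0.328% of the 4577 genes tested were called in either direction (0.262% higher, 0.0655% lower; limma on log2 of the value per 10000 + 0.5, Benjamini-Hochberg adjusted p under 0.05 over all genes tested). At an unadjusted p under 0.05 there was 1 member, Cfl1. In lung, 1 of the 10 changed: Tmsb10 was lower in CD244+ cells, in a comparison where 3.95% of all genes tested were called lower and 7.08% higher. No actin, Arp2/3 subunit, profilin, cofilin or coronin gene passed in either tissue. Fold changes on this scale understate those of low genes such as Pfn1 and Arpc3.

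Tmsb10, the thymosin that sequesters actin subunits beside Tmsb4x, stood at 28.7, 19.5 and 20.8 molecules per 10000 in the lung CD244+ libraries. The lung CD244- libraries held 38.4, 36.8 and 40.4, so the lung groups did not overlap and library 1 was the nearest to the other subset. In this comparison 10.1% of all genes tested were lower and 12.2% higher without overlap. Thymus libraries held 30.2, 27.6 and 28.7 in CD244+ and 30.1, 35.9 and 32.9 in CD244- cells. The lung difference in log2 value was -0.75 ± 0.13 SE, 0.594-fold, with an adjusted p of 1.05e-05 from limma. In these bulk samples, fewer cells of a type and less RNA per cell cannot be told apart. In thymus it was -0.19 ± 0.13 (limma adjusted p = 1.0), with groups that overlapped. The difference between these effects, -0.56 ± 0.18 in log2 value, did not pass (limma interaction, adjusted p = 0.0656), so the lung effect was not shown to exceed that in thymus. With lung CD244+ library 1 alone the lung value was -0.42 and did not pass (limma adjusted p = 0.0945). Macrophage markers were high and T cell receptor genes low in the same CD244+ libraries. When every library was scaled to an equal sum of T cell receptor complex genes, the median of all genes in this comparison moved to 0.67 and the value of Tmsb10 turned to 0.36 (limma adjusted p = 0.126), which is still below that median. The share of calls that were higher moved as well, from 324 higher and 181 lower to 1610 higher and 18 lower, and to 418 higher and 80 lower with TMM factors, where Tmsb10 was at -0.51 (limma adjusted p = 0.0131).

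Tmsb4x, the more abundant thymosin, went the other way in value without passing. It held 90.1, 102 and 93.6 molecules per 10000 in lung CD244+ libraries and 77.2, 83.3 and 93.2 in lung CD244- libraries, which overlap. Its lung difference was 0.17 in log2 value with a 95% interval of -0.01 to 0.36 (limma adjusted p = 0.269). With TMM factors, which moved the median of all genes to 0.13, it was 0.42 and passed (limma adjusted p = 0.00556). In thymus, values of 73.9, 72.4 and 77.3 in CD244+ and 57.5, 70.8 and 73.5 in CD244- cells gave 0.15 (95% interval -0.03 to 0.34). Those groups overlapped too, with CD244- library 1 the lowest of all 12.

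The cytoplasmic actins had higher means in lung CD244+ than in lung CD244- cells but did not pass. Actb had 87.7, 94.8 and 107 molecules per 10000 against 80.5, 72.5 and 92.8, a log2 difference of 0.24 ± 0.09 SE (limma adjusted p = 0.0874). Actg1 had 28.0, 16.7 and 39.5 against 20.2, 17.6 and 18.9, a log2 difference of 0.48 ± 0.17 (limma adjusted p = 0.0608). For both genes the lung groups overlapped, and for Actg1 the CD244+ library 2 lay below every CD244- library while library 3 lay far above them. Without that library 2 the Actg1 value was 0.80 and passed (limma adjusted p = 0.000255). With library 1 alone Actb was at 0.11 and Actg1 at 0.56, and neither passed (limma adjusted p = 0.751 and 0.0784). TMM factors brought both actins past the threshold as they did Tmsb4x, with Actb at 0.49 and Actg1 at 0.72.

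In thymus the actins were close to equal between subsets. Actb had 67.7, 77.3 and 80.4 molecules per 10000 in CD244+ and 73.9, 73.2 and 76.9 in CD244- libraries, and the 95% interval of the log2 difference was -0.18 to 0.19. For Actg1 the values 13.4, 13.9 and 13.2 against 15, 13.2 and 14 gave an interval of -0.40 to 0.29. The CD244+ and CD244- libraries overlapped for both genes.

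Cfl1, whose product severs filaments, was the only gene of the set whose thymus groups did not overlap. It had 7.38, 8.04 and 6.71 molecules per 10000 in CD244+ and 8.89, 10.3 and 11.6 in CD244- libraries. The log2 difference was -0.45 ± 0.19 SE, with an unadjusted p of 0.0234 and a limma adjusted p of 1.0. Of all genes tested, 6.27% were lower and 5.62% higher without overlap in this comparison. In lung the Cfl1 values of 8.19, 8.23 and 9.53 against 9.09, 10.6 and 7.14 overlapped, at -0.03 in log2 value.

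The other regulators spread over 0 in both tissues. For Coro1a, the leukocyte coronin, the log2 difference between subsets was 0.09 in thymus and -0.09 in lung. For the Arp2/3 subunits Arpc1b and Arpc2 the lung values were 0.09 and 0.23, and for Arpc3 -0.04 with a wide 95% interval of -0.76 to 0.68. Pfn1 was at 0.28 in thymus and 0.47 in lung, where library 1 of the CD244- group had no molecule, a result that allows up to 1.01 per 10000. The median over the 10 genes was 0.05 in thymus and 0.13 in lung, beside medians of -0.01 and 0.00 for all genes tested.

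**Figure D2:**
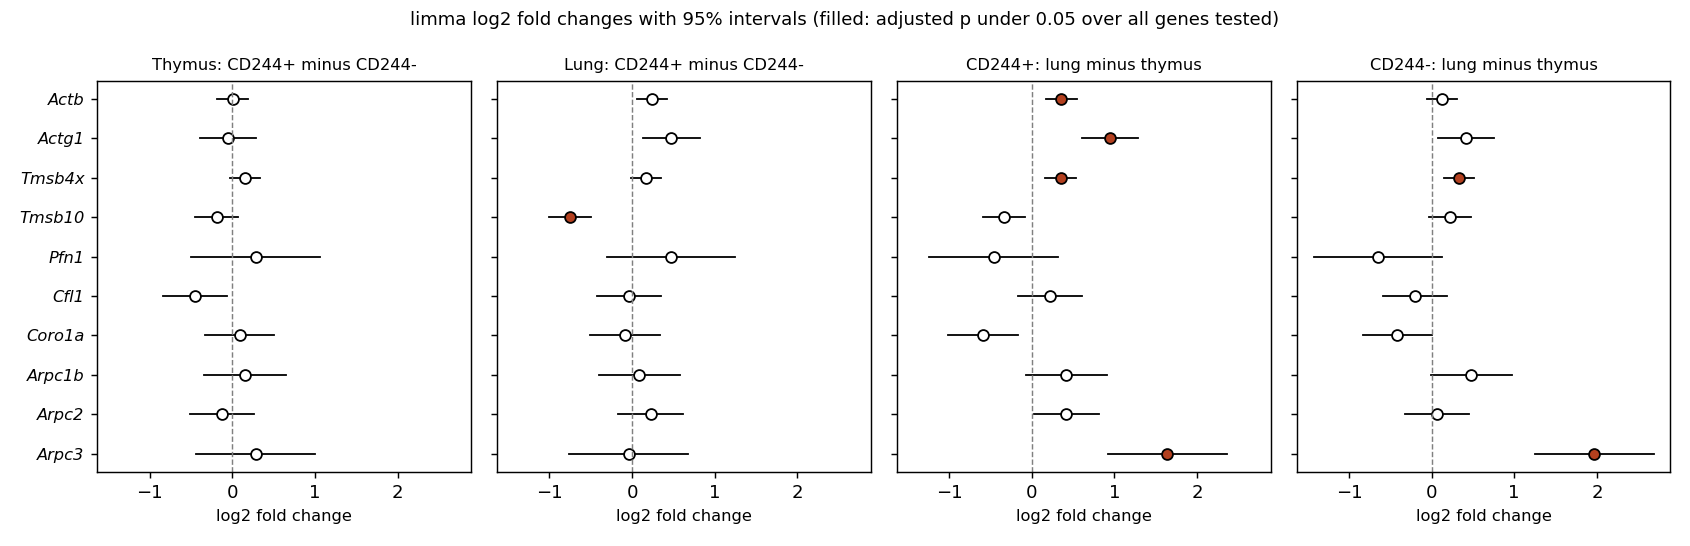
Log2 fold changes (horizontal axis) of the 10 genes with 95% intervals from limma in 4 comparisons; filled points passed an adjusted p of 0.05 over all genes tested. No point is filled for thymus subsets, Tmsb10 alone is filled and negative for lung subsets, 4 genes are filled for CD244+ tissues and 2 for CD244- tissues.

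The second question was how each subset differs between lung and thymus. Both comparisons are lung minus thymus, after all columns were put on 1 total, because the deposited thymus columns sum to 1.39 times the lung columns. In CD244+ cells, 4 of the 10 genes were higher in lung and none lower: Actb, Actg1, Tmsb4x and Arpc3, where 7.80% of all genes tested were called higher and 4.50% lower. In CD244- cells, 2 were higher and none lower, Tmsb4x and Arpc3, where 3.58% were called higher and 3.30% lower (6.88% in either direction). The groups did not overlap for 7 genes higher and 1 lower in CD244+ cells (15.2% and 12.5% of all genes tested), and for 4 higher and 1 lower in CD244- cells (11.3% and 10.1%). Median log2 differences of the 10 genes were 0.35 and 0.17, beside 0.00 and -0.01 for all genes tested. No member passed the test of whether the tissue difference depends on the subset, which is the same interaction as above and called 4.24% of all genes tested (3.47% higher and 0.765% lower). By unadjusted p, 2 members were under 0.05, Tmsb10 and Actg1. With the stricter filter and with sample weights 1 member passed this interaction as lower, beside 49 of 984 and 38 of 4577 genes called lower. With edgeR 1 member passed as higher, beside 16 of 1165 genes, and with T cell receptor scaling 5, beside 448 of 4958.

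Arpc3, a small subunit of the Arp2/3 complex on chromosome 5 (122391878 to 122414184, plus strand), had the largest difference. It held 0.279, 0.631 and 0.530 molecules per 10000 in thymus CD244+ libraries and 1.64, 3.06 and 3.11 in lung CD244+ libraries. CD244- cells had 0.445, 0.299 and 0.166 in thymus and 1.68, 4.64 and 2.17 in lung. Every lung library lay above every thymus library in both subsets. These levels are low: 9 and 6 molecules were seen over the thymus groups and 37 and 26 over the lung groups, in the same order. The log2 difference was 1.64 ± 0.36 SE in CD244+ (limma adjusted p = 0.000442) and 1.97 ± 0.36 in CD244- cells (limma adjusted p = 6.21e-05). The gene passed the filter on low values through lung, since 2 of 6 thymus libraries and 6 of 6 lung libraries were over 0.5. In the CD244- comparison macrophage markers were at or near 0 in all 6 libraries. Lung epithelium markers there gave 3.70, 1.66 and 1.63 per 10000 in lung and at most 0.166 in thymus. Their part in this difference was not tested. In CD244+ cells, library 1 alone gave 1.14 and did not pass (limma adjusted p = 0.248).

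The other Arp2/3 subunits of the set did not pass. Arpc2 (chromosome 1, 74236084 to 74268209) had 8.64, 11.2 and 10.2 molecules per 10000 in thymus CD244+ and 11.9, 12.9 and 15.9 in lung CD244+ libraries, without overlap, at 0.42 ± 0.19 SE in log2 value (limma adjusted p = 0.183). In CD244- cells it had 12.9, 14.4 and 6.99 in thymus and 9.43, 14.3 and 11.2 in lung, which overlap, at 0.07. Arpc1b (chromosome 5, 145114215 to 145130705) was at 0.42 in CD244+ and 0.48 in CD244- cells, with limma adjusted p of 0.337 and 0.282. Its lung CD244- libraries of 4.38, 9.95 and 4.97 were spread by library 2. Arpc1b shares its end with the antisense gene Pdap1 over 1937 bases. The counting step is not stated to use strand, so reads of these genes may not be told apart, and Pdap1 was listed with 50 molecules against 324.5 of Arpc1b.

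Actg1, the gamma actin, was the actin with the larger tissue difference. Lung CD244+ libraries held 28.0, 16.7 and 39.5 molecules per 10000, and thymus CD244+ libraries 13.4, 13.9 and 13.2. The lung libraries all lay above those of thymus, though library 2 by little. Log2 values differed by 0.95 ± 0.17 SE, 1.93-fold, with a limma adjusted p of 2.15e-05. The SE comes from 1 model over all 4 groups, although lung CD244+ libraries spread far more (SD 11.4 per 10000) than thymus CD244+ libraries (0.330). Library 1 alone gave 1.03, a value without a spread of its own group. In CD244- cells 20.2, 17.6 and 18.9 in lung stood above 15, 13.2 and 14 in thymus without overlap. That difference was 0.42 ± 0.17 and did not pass (limma adjusted p = 0.151). In lung CD244+ libraries 1, 2 and 3, in that order, Actg1 at 28.0, 16.7 and 39.5 stood beside macrophage sums of 64.8, 130 and 105 and MHC class II and B cell sums of 48.9, 71.1 and 126. The part of that RNA in Actg1 was not tested.

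Actb, the beta actin, had a smaller difference. In CD244+ cells it was higher in lung by 0.36 ± 0.09 SE in log2 value, 1.28-fold (limma adjusted p = 0.00335), with 87.7 as the lowest lung library and 80.4 as the highest of thymus. That call was lost without thymus CD244+ library 1 (0.29, limma adjusted p = 0.0683), without lung CD244+ library 3 (0.28, 0.0744) and with lung library 1 alone (0.23, 0.345). In CD244- cells the groups overlapped and the value was 0.13 (limma adjusted p = 0.517).

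Tmsb4x passed in both subsets. In CD244+ cells the highest thymus library held 77.3 and the lowest lung library 90.1 molecules per 10000, and the log2 difference was 0.35 ± 0.09 SE (limma adjusted p = 0.00464). Library 1 alone gave 0.27 and did not pass (limma adjusted p = 0.232). In CD244- cells the groups met closely, at 73.5 for the highest thymus and 77.2 for the lowest lung library. The difference was 0.33 ± 0.09 (limma adjusted p = 0.0145), where macrophage markers were at or near 0 and lung epithelium markers at 1.63 to 3.70 in lung. It did not pass without thymus CD244- library 1 (0.22, limma adjusted p = 0.252) or without lung CD244- library 3 (0.26, 0.110). With TMM factors it was 0.09 (limma adjusted p = 0.729).

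Scaling decided the direction of the small tissue differences. With the columns as deposited, the median of all genes in lung minus thymus moved to -0.27 in CD244+ and -0.29 in CD244- cells. Actb then stood at -0.11 and Tmsb4x at -0.12 in CD244+ cells, and Tmsb4x at -0.14 in CD244- cells, each above that median but below 0. Actg1 at 0.48 in CD244+ cells and Arpc3 at 1.38 and 1.76 stayed positive and passed. In CD244+ cells 2 genes then passed as higher (Actg1 and Arpc3) and 2 as lower, Tmsb10 at -0.81 (limma adjusted p = 4.22e-07) and Coro1a at -1.04 (5.07e-05). In CD244- cells Arpc3 passed as higher and 3 genes as lower, Actb at -0.35 (limma adjusted p = 0.00469), Cfl1 at -0.65 (0.0172) and Coro1a at -0.87 (0.00158). All genes split into 271 higher and 494 lower in CD244+ cells in that setting, against 357 and 206 on the common total. In CD244- cells the split was 112 and 438, against 164 and 151, and with TMM factors 117 and 242. Scaling to T cell receptor complex genes moved the median to 0.46 and the split to 959 and 42 in CD244+ cells, where all 4 calls held. TMM factors moved the median of all genes by over 0.1 in lung subsets (0.13) and in CD244- tissues (-0.14), and quantile normalization did so in CD244+ tissues (-0.10). The interaction split of 159 higher and 35 lower became 169 and 13 with TMM factors and 448 and 2 with T cell receptor scaling. The thymus split of 12 and 3 became 10 and 0 with the latter.

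**Figure D3:**
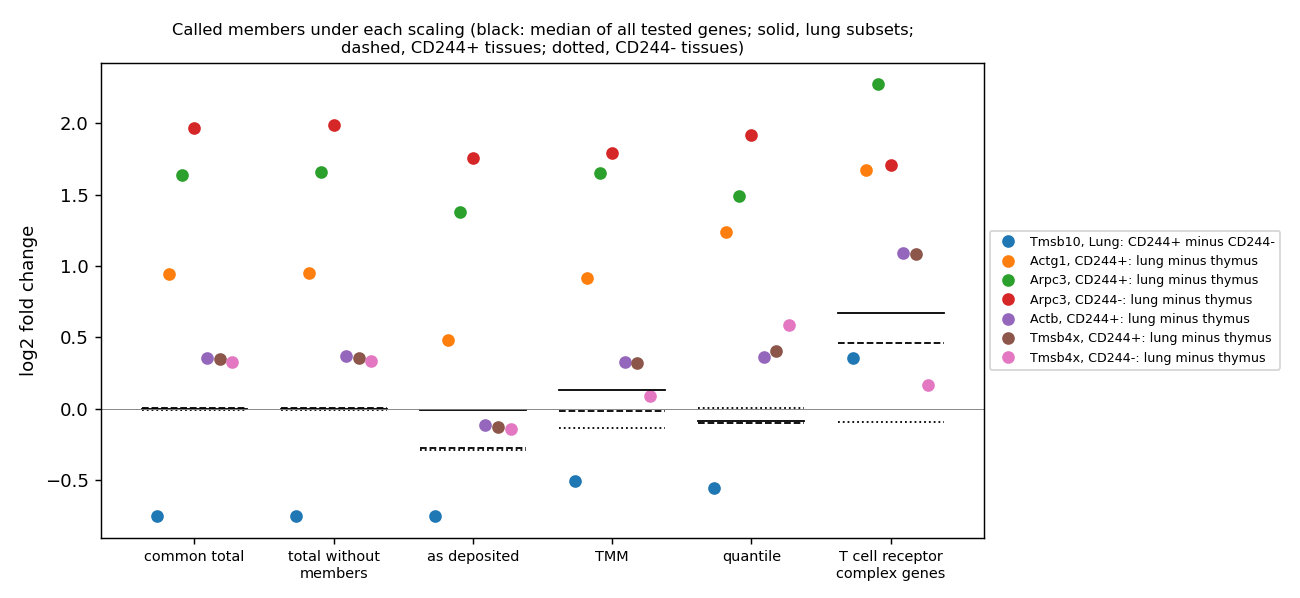
Log2 fold changes (vertical axis) of the 7 differences that passed on the common total, under 6 ways of scaling the libraries (horizontal axis); black lines are medians of all tested genes in the same comparison. Arpc3 and Actg1 stay above 0 under every scaling, Actb and Tmsb4x fall below 0 as deposited, and Tmsb10 is above 0 only when scaled to T cell receptor complex genes.

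The remaining genes did not pass between tissues on the common total. Tmsb10 had -0.34 ± 0.13 SE in CD244+ cells (limma adjusted p = 0.0767), with lung library 1 inside the thymus range, and 0.22 in CD244- cells, where the groups did not overlap (limma adjusted p = 0.365). Coro1a (chromosome 7, 126699773 to 126707787) had 10.6, 10.7 and 11 molecules per 10000 in thymus CD244+ and 10.2, 4.7 and 7.0 in lung CD244+ libraries, lower without overlap. Its log2 difference was -0.59 ± 0.21 (limma adjusted p = 0.0545), and -0.07 with library 1 alone. In CD244+ cells Tmsb10 and Coro1a passed as lower with the stricter filter (limma adjusted p = 0.0384 and 0.0326), with sample weights (0.0408 and 0.0306) and with the columns as deposited. In CD244- cells Coro1a went from 9.48, 9.57 and 11.3 in thymus to 8.84, 5.31 and 8.77 in lung, again without overlap, at -0.41 (limma adjusted p = 0.281). Cfl1 was at 0.22 and -0.20 in the CD244+ and CD244- comparisons. Pfn1, which passes subunits to filament ends, was at -0.46 and -0.65 with 95% intervals from -1.24 to 0.31 and from -1.43 to 0.13.

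Ratios of paralogs within a library do not depend on how the libraries were scaled. The ratio of Tmsb4x to Tmsb10 was 2.44, 2.62 and 2.70 in thymus CD244+ and 1.91, 1.97 and 2.23 in thymus CD244- libraries. In lung it was 3.14, 5.21 and 4.50 in CD244+ and 2.01, 2.26 and 2.31 in CD244- libraries. In each tissue every CD244+ library was above every CD244- library, with means of 2.59 ± 0.13 against 2.04 ± 0.17 in thymus and 4.28 ± 1.05 against 2.19 ± 0.16 in lung (SD, n = 3). CD244+ cells had a ratio 1.56-fold higher over both tissues, 0.64 in log2 ratio (exact two-sided permutation within tissue, p = 0.005, the smallest that 400 arrangements can give, 0.02 adjusted over 4 ratio tests). Within a tissue, an exact permutation test of 3 against 3 cannot go below 0.1, and both tissues gave p = 0.1. In thymus the log2 difference was 0.35, in libraries where macrophage markers summed to at most 0.631 per 10000. NK cell markers summed to 8.71 to 9.18 in the thymus CD244+ and 0.224 to 1.54 in the thymus CD244- libraries. The part of other cells in this ratio was not tested. Without each library in turn the pooled value was 0.56 to 0.75. With lung CD244+ library 1 alone it was 0.43 (exact permutation p = 0.0125), and the tissue difference that follows was 0.19 (exact permutation p = 0.0375). Lung exceeded thymus by 0.40 in log2 ratio (exact permutation p = 0.01, adjusted 0.02). The tissue difference was 0.70 in CD244+ and 0.11 in CD244- cells (exact permutation p = 0.1 and 0.2), and whether these differ was not tested. The call of lung over thymus was lost without any 1 of the thymus CD244+ libraries (exact permutation p = 0.06). The log2 value without them was 0.38, 0.41 and 0.42, close to the 0.40 of all libraries. Exact 95% counting intervals of the library ratios were 2.59 to 3.83 in lung CD244+ library 1 and 4.11 to 6.67 in library 2, so these 2 libraries of a group differed by more than counting error.

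The ratio of Actb to Actg1 was 5.06, 5.57 and 6.07 in thymus CD244+ and 4.94, 5.56 and 5.51 in thymus CD244- libraries. Lung CD244+ libraries had 3.13, 5.68 and 2.71, and lung CD244- libraries 3.98, 4.12 and 4.90. Except for lung CD244+ library 2, all lung ratios were below all thymus ratios. Lung minus thymus was -0.46 in log2 ratio, 0.729-fold (exact two-sided permutation within subset, p = 0.025, adjusted 0.0333). The call was lost without any 1 of the thymus CD244+ libraries (exact permutation p = 0.065, 0.095 and 0.105). There the value stayed at -0.49, -0.46 and -0.42. With lung CD244+ library 1 alone it was -0.57 (exact permutation p = 0.0125). In CD244- cells alone the mean ratio was 4.33 ± 0.49 in lung and 5.34 ± 0.35 in thymus (SD, n = 3), without overlap (exact permutation p = 0.1, the smallest possible). In CD244+ cells alone it was 3.84 ± 1.61 in lung and 5.57 ± 0.50 in thymus. Those groups overlapped, at -0.61 in log2 ratio (exact permutation p = 0.3). Between subsets the log2 ratio differed by -0.09 (exact permutation p = 0.58).

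**Figure D4:**
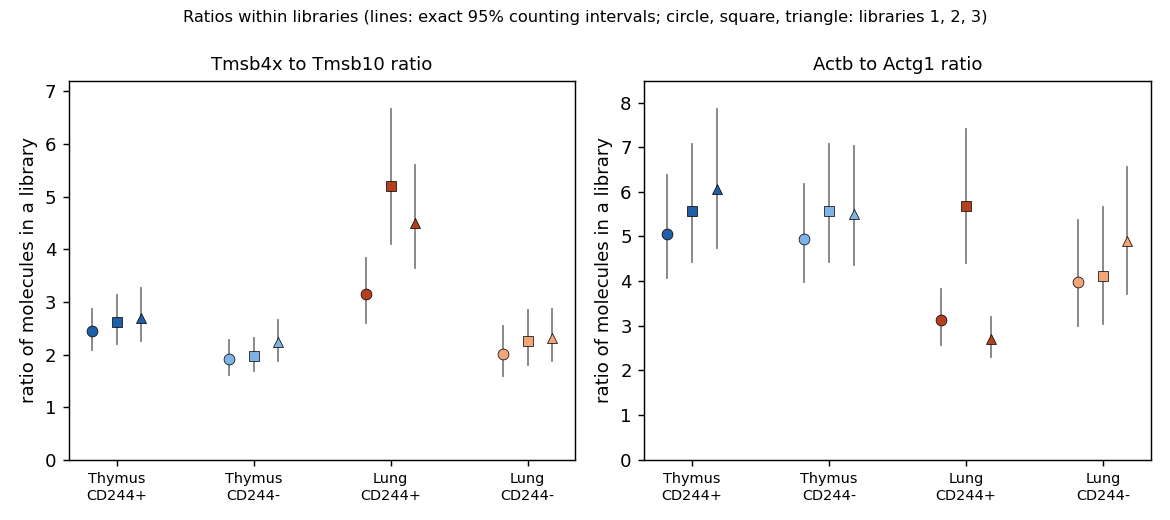
Ratios of molecules of Tmsb4x to Tmsb10 (left) and of Actb to Actg1 (right) in each of the 12 libraries (vertical axis, linear, from 0), with exact 95% counting intervals as lines. On the left the lung CD244+ libraries at 3.14 to 5.21 stand above all others; on the right lung CD244+ libraries 1 and 3 are lowest, at 3.13 and 2.71, while library 2 at 5.68 lies among the thymus libraries.

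The libraries with the most macrophage RNA also had the lowest Tmsb10. In order of lung CD244+ libraries 1, 2 and 3, the marker sum was 64.8, 130 and 105 per 10000, the T cell receptor sum 24.2, 12.9 and 16.5, Tmsb10 28.7, 19.5 and 20.8, and Coro1a 10.2, 4.7 and 7.0. Library 1, lowest in macrophage markers, was thus the highest of the group in Tmsb10 and Coro1a, and library 2 the reverse. With 3 libraries this order is a description only.

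**Figure D5:**
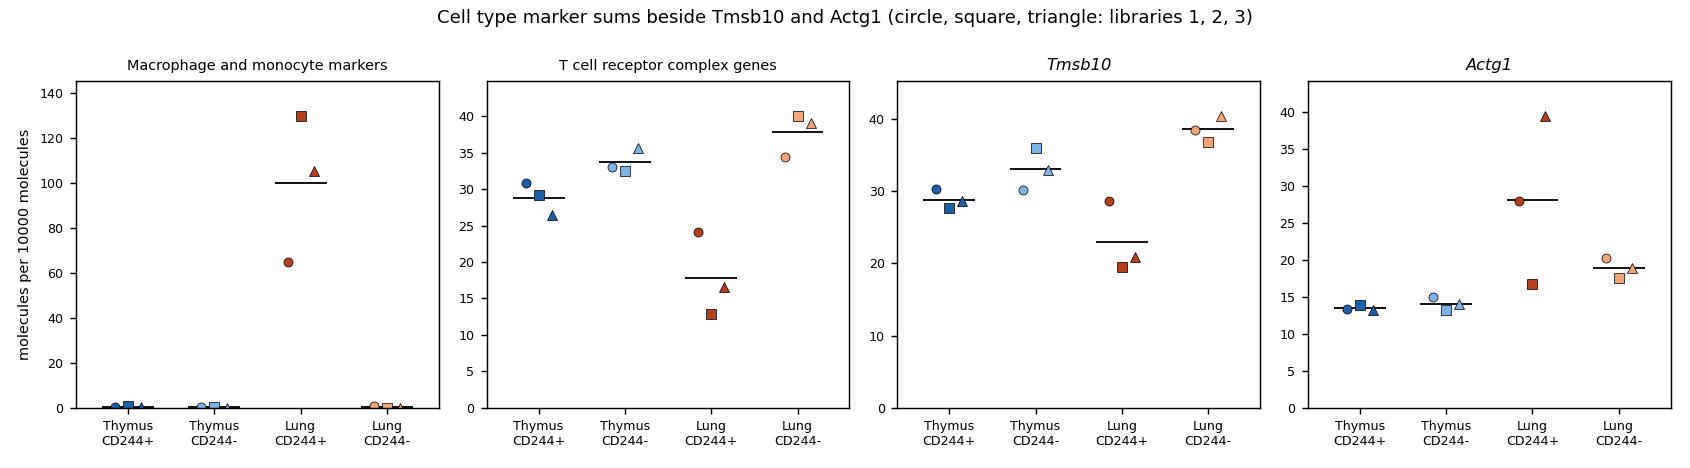
Sums of 16 macrophage and monocyte markers and of 11 T cell receptor complex genes beside Tmsb10 and Actg1, in molecules per 10000 molecules (vertical axes, linear, from 0) for 12 libraries; bars are group means. Macrophage markers reach 64.8 to 130 in lung CD244+ libraries and at most 0.673 elsewhere, and the circle (library 1) is the lung CD244+ library nearest to the other groups in the first 3 panels.

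Other genes of actin regulation were counted from 5 lists of 85 genes, of which 84 were in the table and 73 were tested. In thymus none passed between subsets, beside 0.328% of all genes tested, and the median log2 difference of the lists was -0.01. In lung, 7 of 73 were higher in CD244+ cells and none lower, beside 7.08% of all genes called higher. Between tissues, 4 were higher and 1 lower in CD244+ cells (7.80% and 4.50% of all genes), and 1 was higher in CD244- cells (3.58%). The other 6 Arp2/3 subunits had no call in any comparison, and their median difference between tissues was 0.24 in CD244+ and -0.05 in CD244- cells.

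Cyfip1, a subunit of the WAVE complex that switches on Arp2/3, was seen with 7, 11 and 6 molecules in the lung CD244+ libraries and none in the lung CD244- libraries. Taking 3 molecules as the most that the lung CD244- libraries could hold in all, this is at least 5.16-fold higher (limma adjusted p = 1.32e-05). That bound takes the lung CD244+ molecules as exact, so counting error there could bring the fold lower. With library 1 alone the log2 difference was 1.95. Cyfip1 passed the filter on low values through the lung CD244+ libraries alone, so it could be tested only because it was high there. Thymus groups had 1 and 2 molecules in all. Dstn, the cofilin relative destrin, had 21 molecules against 1 in lung, a ratio of 13.5 with a 95% counting interval of 2.18 to 560 (limma adjusted p = 0.00696), and 14 of the 21 came from library 3. Without that library the log2 difference was 1.03 and did not pass (limma adjusted p = 0.137), nor did it with library 1 alone (0.18). The crosslinker gene Actn1 had 11 against 0 (limma adjusted p = 0.0202), at least 2.36-fold higher if the 11 are taken as exact. It did not pass without lung CD244+ library 1 (limma adjusted p = 0.0871) or without library 3 (0.101). With library 1 alone its log2 difference was 1.61. Rac1, the GTPase upstream of the WAVE complex, had 4.09, 5.88 and 3.50 molecules per 10000 in lung CD244+ and 2.02, 1.33 and 3.11 in lung CD244- libraries, a log2 difference of 0.94 ± 0.29 SE (limma adjusted p = 0.0228). Rac1 did not pass without lung CD244+ library 2 (limma adjusted p = 0.157), without lung CD244- library 2 (0.142) or with CD244+ library 1 alone (0.307). The lung groups of these genes did not overlap, which also held for 12.2% of all genes tested as higher in CD244+ cells. Actn1 had 1 molecule in lung CD244+ library 2. Dstn and Actn1 passed the filter through 2 lung CD244+ libraries and 1 thymus CD244+ library, with no CD244- library over it. The macrophage markers stood high in the same lung CD244+ libraries, and their part in the differences of all these genes was not tested.

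Between tissues, Tpm4, a tropomyosin that lines filaments, was higher in lung in both subsets. CD244- libraries held 2.22, 1.79 and 1.66 molecules per 10000 in thymus and 6.73, 5.06 and 4.66 in lung, at 1.31 ± 0.28 SE in log2 value (limma adjusted p = 0.000621), with macrophage markers at or near 0. Lung epithelium markers were at 1.63 to 3.70 in those lung libraries. CD244+ libraries held 2.37, 1.26 and 2.65 in thymus and 3.94, 4.94 and 3.89 in lung, at 0.91 ± 0.28 (limma adjusted p = 0.0177). The CD244+ call was lost without thymus library 2 (limma adjusted p = 0.204), without lung library 2 (0.0948), with lung library 1 alone (0.287) and as deposited (0.243). Tagln2, a transgelin that binds filaments, rose from 2.37, 1.73 and 1.94 in thymus CD244+ to 6.96, 5.41 and 5.83 in lung CD244+ libraries. Its log2 difference was 1.39 ± 0.29 (limma adjusted p = 0.000191), and 1.58 with lung library 1 alone. Gsn, the severing protein gelsolin, had 10 molecules in lung and 0 in thymus CD244+ cells (limma adjusted p = 0.00804). If the 10 are taken as exact, this is at least 4.48-fold higher. With lung library 1 alone the log2 difference was 1.16. Gsn, like Cyfip1, passed the filter through the 3 lung CD244+ libraries alone. Cyfip1 had 24 molecules in lung and 1 in thymus CD244+ cells (limma adjusted p = 2.94e-05), a ratio of 32.2 with a 95% counting interval of 5.26 to 1326. With lung library 1 alone its log2 difference was 1.82. Cnn2, a calponin, was the gene lower in lung CD244+ cells, at -0.94 ± 0.27 (limma adjusted p = 0.00992), with 4.6, 5.36 and 4.77 in thymus and 2.25, 1.65 and 3.31 in lung. It did not pass without thymus CD244+ library 2 (limma adjusted p = 0.0587), without lung CD244+ library 2 (0.0998) or with lung library 1 alone (0.101), and was -0.31 with T cell receptor scaling (0.535).

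Genes most like Actb and Tmsb4x were sought among 652 tested genes with a mean of at least 2 per 10000, by the root mean square difference of log2 values centred over the 12 libraries. Nearest to Actb was Ptma at 0.142, then Srgn, Pcbp2, Gm1821 and Gnas, and Tmsb4x itself stood at 0.142 from Actb. Nearest to Tmsb4x was Gm1821 at 0.145, then Cap1, Pcbp2, Rn45s and Gnas. Cap1, the actin monomer binding protein that recycles cofilin-bound subunits, had means of 2.80 and 2.74 in thymus and 3.28 and 3.32 in lung (CD244+ and CD244-). The median distance over all candidates was 0.480 for Actb and 0.494 for Tmsb4x. Tmsb10 stood at 0.434 from Tmsb4x and Actg1 at 0.340 from Actb, so neither paralog was among the nearest genes.

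Near copies of 5 members (95% identity or more over at least 200 bases) are annotated, for Actg1, Tmsb10, Cfl1, Arpc1b and Arpc2, and none has a row of its own in the table used here. How reads that fit both a gene and its copy were counted is not stated, so the levels of these members are uncertain to that extent. Coro1a overlaps the antisense gene Bola2 over 26 bases and Cfl1 overlaps the antisense gene Snx32, and these had 65 and 4 molecules in all, so the limit given for Arpc1b holds for them too. Of the 120 values of the 10 genes, 24 were not whole numbers of molecules, among them 9 of Actb and 9 of Tmsb4x.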

How the data were processed

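RNA was measured in 12 libraries, each of 100 sorted mouse iNKT cells. Per the labels' protocols, the reverse transcription primer carried a molecular barcode and an oligo-dT stretch, template switching added the other primer site, and ERCC spike-in RNA was added. Per the submitters' processing notes, STAR was used with mm10; the counter, annotation and normalization are not given in the sources used here. The deposited table holds 1 signal value per gene and library, and no header or label records how the authors scaled it. From the values, each column was inferred to be molecules times a constant, taken as its most frequent nonzero value. Dividing by that constant gave whole molecules for 94.3% to 95.9% of nonzero values (tolerance 1e-06). The table has 0 ERCC rows.

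All columns were rescaled to a total of 10000. The 4577 genes over 0.5 in at least 3 libraries were fitted with limma 3.58.1 (trend, robust; R 4.3.3) on log2(value + 0.5), with 4 groups in 1 model, and p-values were two-sided and Benjamini-Hochberg adjusted over all genes tested. Ratios of paralogs were compared by exact permutation (scipy 1.17.1) within strata, 400 arrangements. Alternatives were other scalings, filters and pseudocounts, sample weights, a replicate block, thinning, leaving out each library, and edgeR 4.0.16 on recovered molecules of the 9 libraries whose steps could be checked as whole. The test was tried on simulated data. Positions and coding sequences came from GENCODE M21 with blastn 2.17.0 for near copies, and upstream sequence from RefSeq.

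The 10 genes, the lists and the tests were chosen with earlier results of these data known. Named were all 10 genes, up to 4 pathway genes per direction and comparison with the smallest p among those called, and the 5 genes nearest to Actb and to Tmsb4x. Lists of NK cell, lung epithelium, and endothelium and fibroblast markers were summed too. Per 10000, NK cell markers gave 8.71 to 9.18 in thymus CD244+, 0.224 to 1.54 in thymus CD244-, 9.19 to 20.8 in lung CD244+ and 0.621 to 0.995 in lung CD244- libraries. Lung epithelium markers gave at most 0.166 in thymus and 1.02 to 3.70 in lung, and endothelium and fibroblast markers at most 0.470 in any library.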

Additional observations from a re-analysis of the deposited data

Results flagged for a closer look

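For Cyfip1, a WAVE complex subunit, the difference between CD244+ and CD244- cells passed the test of whether it differs between lung and thymus: 2.22 ± 0.52 SE in log2 value (limma interaction, adjusted p = 0.00355). Lung CD244+ libraries held 7, 11 and 6 molecules, lung CD244- libraries none, and thymus libraries 0 or 1. The gene passed the filter on low values through the 3 lung CD244+ libraries alone, so it entered the test only because it was high there. The fitted value depends on the pseudocount because a group is at 0, and it is no bound. With lung CD244+ library 1 alone it was 2.07. Macrophage markers were high in the same 3 libraries, and their part in this difference was not tested.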

How the results depend on the processing

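Same-numbered libraries correlated at -0.034 to 0.017 in their deviations from group means, and other-numbered libraries at -0.042 to 0.035. Many of the genes used had few molecules, which keeps such values near 0. Whether replicate numbers pair the libraries can therefore not be told. With the replicate block, members called in lung subsets numbered 2 in place of 1 (Actg1 joined), and the Actb to Actg1 ratio between tissues kept its log2 value of -0.46 but had an exact permutation p of 0.0625. The members called otherwise numbered 4 (TMM), 2 (quantile), 8 (T cell receptor scaling), 2 (pseudocount 2), 3 (edgeR) and 0 (lung CD244+ library 1 alone) in lung subsets. They numbered 7 (T cell receptor) and 1 (library 1) against 4 in CD244+ tissues, and 4 (as deposited), 1 (TMM), 4 (quantile), 1 (T cell receptor) and 1 (no filter) against 2 in CD244- tissues. For the interaction they numbered 5 higher (T cell receptor), 1 higher (edgeR) and 1 lower each (stricter filter, weights) against 0. In CD244+ tissues further settings called 5 members higher and 1 lower (quantile) or 4 higher and 2 lower (stricter filter, weights). In that order, all genes split there into 338 higher and 267 lower of 4577, 173 and 192 of 984, and 391 and 241 of 4577. In the same comparison 4 members higher and 1 lower were called with pseudocount 2, with the replicate block and with the compared libraries alone. Of all 4577 genes, these settings called 383 and 208, 358 and 201, and 399 and 231. In lung subsets T cell receptor scaling, with its 8 members, called 1610 higher and 18 lower of 4958 genes.

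Values that changed sign and passed on at least 1 of the 2 scales were, on T cell receptor scaling in lung subsets, Tmsb10 (0.36), Cfl1 (1.04) and Coro1a (0.96). As deposited they were Actb -0.11 and Tmsb4x -0.12 in CD244+ tissues, and Actb -0.35 (limma adjusted p = 0.00469) and Tmsb4x -0.14 in CD244- tissues. Sign changes where neither value passed were Arpc3 (0.93) in lung subsets on T cell receptor scaling and, as deposited, Arpc1b (-0.02), Arpc2 (-0.04) and Cfl1 (-0.23) in CD244+ and Actg1 (-0.04), Arpc2 (-0.39) and Tmsb10 (-0.25) in CD244- tissues. TMM factors and the other comparisons added further sign changes among values that did not pass. Thinning to the shallowest library gave a log2 ratio between tissues of -0.49 for Actb to Actg1 (exact permutation p = 0.06) and 0.36 for Tmsb4x to Tmsb10 (p = 0.05).

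All genes called numbered 23 (libraries compared only) and 34 (weights) against 15 in thymus. In lung they numbered 1628 (T cell receptor), 272 (stricter filter), 172 (edgeR), 322 (thinned) and 219 (library 1) against 505. In CD244+ tissues they numbered 1001, 365, 291 and 308 (T cell receptor, stricter filter, edgeR, library 1) against 563. In CD244- tissues they numbered 550 (as deposited), 177 (T cell receptor) and 206 (thinned) against 315. For the interaction they numbered 450, 115, 22, 113 and 100 (T cell receptor, stricter filter, edgeR, thinned, library 1) against 194. Only the larger changes in these numbers are listed. The edgeR fit used 9 libraries and fewer genes, and the cause of the other changes was not tested.

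Leaving out each library, where a lone library is assumed to vary like the others, moved members called to 1 to 2 in lung, 3 to 6 in CD244+ tissues, 1 to 2 in CD244- tissues and 0 to 1 for the interaction. All genes called were 9 to 19 in thymus, 372 to 498 in lung, 444 to 610 in CD244+ tissues, 212 to 328 in CD244- tissues and 134 to 229 for the interaction. The log2 ratio Actb to Actg1 was -0.25 to 0.0125 between subsets and -0.62 to -0.35 between tissues, and Tmsb4x to Tmsb10 0.32 to 0.51 between tissues. Actg1 in CD244+ and Arpc3 in CD244- tissues passed in all 15 alternatives and 12 omissions, Arpc3 in CD244+ tissues in 14 and 12, and Tmsb10 in lung in 13 and 12. Depth limits Pfn1 and Arpc3 most.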

Other observations

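Genes nearest to Tmsb10 were looked up after its values had been seen, by the same distance as for Actb and Tmsb4x. They were Rps27rt at 0.132, Pabpc1, Rpl22, Rplp2-ps1 and Wdr89. Pabpc1 encodes the poly(A)-binding protein of translated mRNA, and Rpl22 and Rps27rt are named for ribosomal proteins. Rps27rt had 16.8 ± 1.09 molecules per 10000 in lung CD244+ and 26.5 ± 0.903 in lung CD244- cells, and Pabpc1 had 46.9 ± 9.03 and 80.3 ± 14.3 (SD, n = 3). Rn45s, the 45S ribosomal RNA precursor, took 705 ± 54.0 and 609 ± 36.2 molecules per 10000 in thymus CD244+ and CD244- cells and 848 ± 86.3 and 883 ± 90.9 in lung, so the common total holds ribosomal RNA whose mean was higher in lung.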
